A study of Homo sapiens with 42 samples.

Results

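The regions described here are the accessible chromatin regions that the authors' annotation assigned to a gene of the HOXA, HOXB, HOXC or HOXD cluster. They were taken by gene symbol from an annotated region table for each of 4 lung cancer cell lines and made up 160 of 242490 annotated regions. PC9 held 60 of 69565, H1975 27 of 76952, HCC827 22 of 30709 and HCC2935 51 of 65264. All 160 passed the filter on low counts and were tested.

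PC9, H1975, HCC827 and HCC2935 are established lines of non-small cell lung cancer that carry an activating EGFR mutation, and their open chromatin was profiled by ATAC-seq, a method that tags accessible DNA with a transposase. The 42 libraries formed 14 groups of 3. Control cells were kept drug-free for 21 days and then given DMSO, the vehicle, for 3 days. DTP cells, drug-tolerant persisters, had 500 nM osimertinib, an EGFR inhibitor, for 24 days. Combo cells had osimertinib for 21 days, followed by 3 days of the bromodomain inhibitor AZD5153 at 150 nM. A further group, AZD5153, made for PC9 and H1975 alone, was kept drug-free for 21 days before 3 days of AZD5153. Whether osimertinib was kept during the AZD5153 days was not given in the sources used here. Nothing in the labels says that replicates were separate cultures, so p-values measure the spread between these libraries only.

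HOX genes encode homeodomain transcription factors that give cells their position along the body axis. They lie in clusters on several chromosomes, and genes of the same paralogue number descend from one ancestral gene, with low numbers at one end of each cluster and high numbers at the other. Low-numbered genes are used in anterior tissues and high-numbered genes in posterior ones. Polycomb complexes keep the unused genes closed, trithorax proteins keep the used ones open, and HOX proteins bind DNA together with PBX and MEIS cofactors. Embryonic lung uses genes of the anterior and central parts of the HOXA and HOXB clusters, HOXA5 among them.

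Library totals over all regions were 3989287 to 5193390 for PC9, 6200672 to 10062505 for H1975, 1724680 to 4242868 for HCC827 and 3968690 to 8066287 for HCC2935. Between libraries of a group, the variance of counts over that of counting noise was 0.961 to 1.05 in PC9 and 0.968 to 1.26 in H1975, so the replicates of those lines differed by little more than sampling noise. It was 1.18 to 1.83 in HCC2935 and 1.21 to 9.56 in HCC827. Although sample titles say ATAC-seq, the protocol text given for the extracts is one for immunoprecipitated acetylated histone, and the values were read here as accessibility. In bulk samples, fewer cells with an open region and less accessibility per cell cannot be told apart. Promoters of all 6 epithelial markers (CDH1, ELF3, EPCAM, KRT8, KRT18 and KRT19) were in the annotated table of every line. Immune marker promoters numbered 2 of 5 in PC9 and H1975, 0 in HCC827 and 1 in HCC2935. In the H1975 AZD5153 libraries the summed epithelial promoters held 49.7 to 51.6 CPM (counts scaled to library size, corrected by TMM factors), while control libraries held 133 to 139, DTP libraries 104 to 116 and combo libraries 136 to 141, with none of the 6 at 0. Both immune promoters of H1975 together held 23.4 to 25.6 CPM in control, 5.99 to 7.70 in DTP, 9.33 to 12.8 in AZD5153 and 9.38 to 12.1 in combo. Lung epithelial promoters held 64.2 to 69.4 CPM in H1975 control and 39.2 to 44.5 in DTP, and 54.5 to 63.1 in HCC2935 control and 31.9 to 38.7 in DTP. The part of these shifts in the HOX results was not tested.

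The clusters were covered unevenly along their length. Regions named for HOXA, HOXB, HOXC and HOXD numbered 20, 18, 13 and 9 in PC9, 9, 7, 8 and 3 in H1975, 7, 8, 6 and 1 in HCC827, and 16, 22, 7 and 6 in HCC2935. Of the 39 HOX genes, 28 had a region in PC9, 26 in HCC2935, 20 in H1975 and 16 in HCC827. In all 4 lines, 9 genes had a region, namely HOXA3, HOXA10, HOXB1, HOXB3, HOXB9, HOXC5, HOXC10, HOXC13 and HOXD12. HOXA11, HOXB2, HOXC6, HOXC11 and HOXD3 had none in any line. Within HOXD, PC9 had 7 regions at paralogues 9 to 13 and 0 at 1 to 3, whereas HOXD1 had its only region in H1975. The genes with most regions over the lines were HOXA3 with 17, HOXC13 with 13, and HOXB1 and HOXB7 with 10 each.

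The annotation named each region for a nearby start, which in these dense clusters is not always the gene it lies in. By RefSeq, 94 of the 160 regions overlapped the assigned gene, 47 overlapped 2 or more genes and 34 overlapped none. Long HOXA3 and HOXB3 transcripts run across neighbouring genes, so a name below is the assigned name and no more. Regions annotated as promoter numbered 44 for PC9, 33 for HCC2935, 17 for HCC827 and 15 for H1975. HOXB1 regions were all distal, and HOXC13 had, besides its promoter, a group of regions 69.9 to 75.7 kb upstream, in an intron by the annotation and within the uncharacterised gene LOC105378250 in RefSeq.

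Promoter levels in control cells ranged widely, and since all regions are 502 bases wide their CPM can be set side by side within a line. In PC9 the region of the promoter nearest the start was highest at HOXB3 (20.9 ± 1.49 CPM, SD, n = 3), HOXC9 (20.04 ± 1.84), HOXD12 (18.4 ± 0.709) and HOXA9 (16.99 ± 1.69), and lowest at HOXA4 (0.890 ± 0.689). The HOXB3 and HOXD12 regions lay at -2661 and -1804 bases from an annotated start, while those of HOXC9, HOXA9 and HOXA4 lay over one. HOXB3 and HOXC9 did not differ beyond their spread. A second HOXB9 promoter region, 91 bases from the start, was higher than any of these (32.3 ± 1.51). The HOXA9 region also held the hairpin of the microRNA gene MIR196B. In HCC2935 HOXA5, a gene of lung development, led with 16.8 ± 0.334 CPM, followed by HOXA4 (8.70 ± 0.922) and HOXC13 (8.61 ± 0.746), which overlapped each other. In HCC827 HOXC13, a posterior gene known for its part in hair and nail, was highest (17.4 ± 3.06), and in H1975 HOXB3 was (15.2 ± 1.59). Levels of every gene in all 14 groups are in the heat map of promoters.

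**Figure D1:**
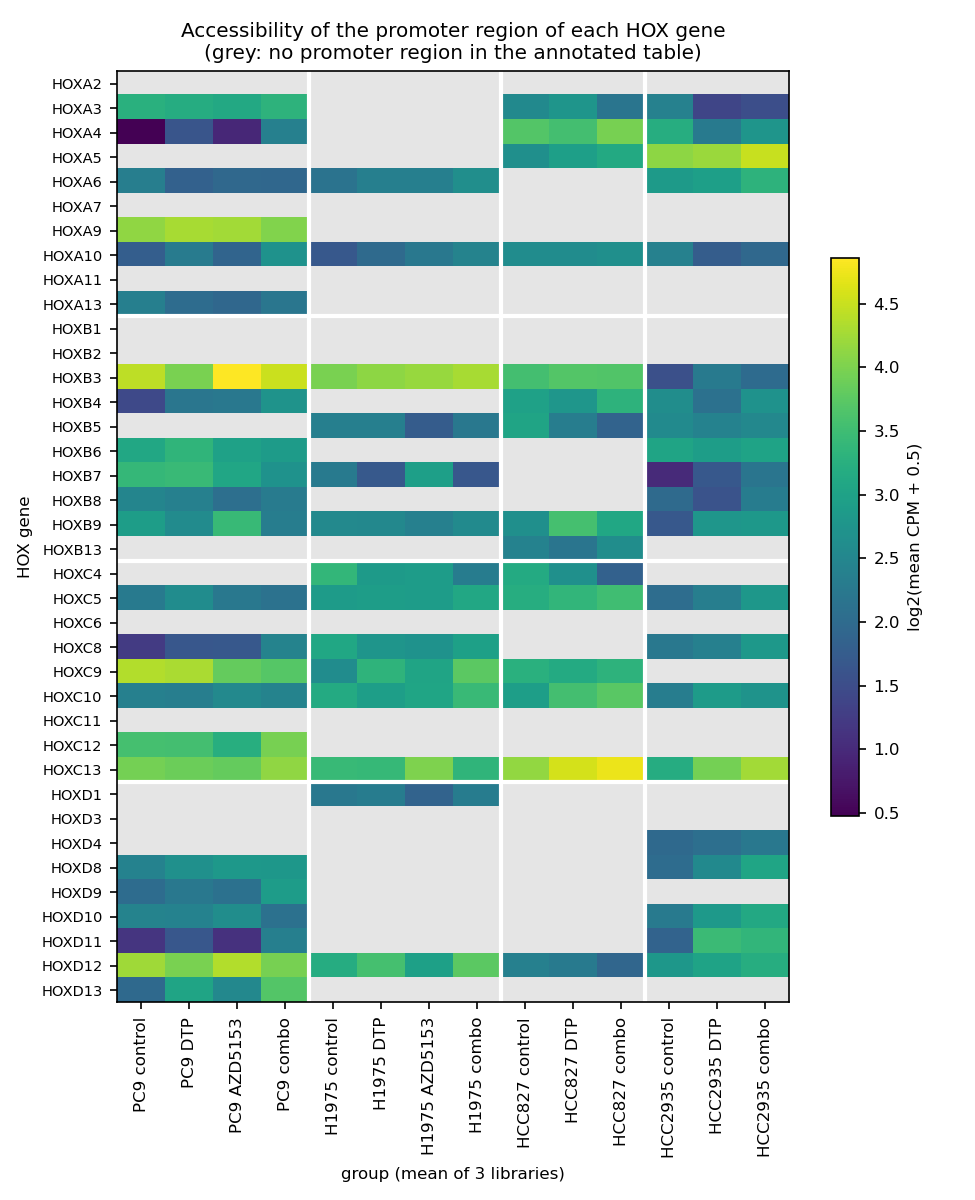
Accessibility of the promoter region of each HOX gene (rows, by cluster and paralogue number) in the 14 groups (columns), as log2 of mean CPM over 3 libraries plus 0.5; grey cells have no promoter region in that line's annotated table. HOXB3, HOXC5, HOXC10, HOXC13, HOXA10, HOXB9 and HOXD12 have a value in every line, while HOXA9, HOXA13, HOXC12, HOXD9 and HOXD13 have values only in PC9. A row can hold different places in different lines, as for HOXB3 (-2661 bases from a start in PC9, 830 in HCC2935).

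The lines were compared over 79508 regions found in all 4 region tables with at least 50% mutual overlap, 35 of them HOX regions. A matched region counted as HOX if it was annotated so in at least 1 line. Of the 35, 10 were annotated so in all 4 lines and 9 in only 1. The shares given for all matched regions had no such condition, here and below. A HOX region can have entered through a line where it was high, and the effect of this on the counts was not tested. Control levels differed between lines at 33 of the 35 (94.3%, edgeR quasi-likelihood test, adjusted p under 0.05), against 84.7% of all matched regions. HOX regions were above the mean of the other lines at 16 of 35 in PC9 and 17 of 35 in HCC827, with 28.3% and 23.3% of all matched regions so called, and below it at 17 of 35 in H1975, where 28.1% were. This fit shared the spread between lines, 7.44% as a coefficient of variation beyond counting noise. Fitted alone, PC9 had 0.988% and HCC827 44.9%, so SEs and adjusted p of HCC827 from the shared fit can be too small. The region chr12:53995340-53995841, named for the posterior gene HOXC9, had 33.4 ± 3.01 CPM in PC9 control, 9.28 ± 0.560 in H1975, 8.47 ± 0.584 in HCC827 and 1.23 ± 0.474 in HCC2935 on the scale of matched regions. It lay over a start that the annotation gives to HOXC9. By RefSeq it overlapped HOXC-AS2 only, and HOXC9 begins at 54000161. It was 2.85 higher (log2, SE 0.163, adjusted p = 1.45e-21) in PC9 than the mean of the others, and no control library of PC9 overlapped another line.

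Each line had leading regions of its own, but genes were shared between lines. HOXB3 at chr17:48564066-48564567 was above the mean of the others in both HCC827 (log2 2.33) and HCC2935 (1.80). HOXB1 regions led in PC9, at chr17:48498041-48498542 (2.18), and in HCC2935. These differences were all called. HCC2935 was above the others at HOXB1 at chr17:48522104-48522605, 8.41 kb downstream of the start, with 23.0 ± 4.84 CPM against 6.90 ± 2.54 in HCC827, 1.95 ± 1.25 in PC9 and 0.631 ± 0.216 in H1975 (log2 difference 3.48, SE 0.274, adjusted p = 3.32e-16). H1975 led at the HOXA3 intron region chr7:27135761-27136262 with 37.2 ± 0.111 CPM, against 10.5 to 14.6 as means of the others (1.64, SE 0.119, adjusted p = 8.6e-18). HCC827 led at HOXD11 at chr2:176107742-176108243 with 16.1 ± 9.14 CPM, against 6.50 ± 1.41 in HCC2935, 5.64 ± 1.55 in PC9 and 0.422 ± 0.210 in H1975 (2.59, SE 0.366, adjusted p = 6.44e-08). Neighbouring matched regions within 5 Mb also stood apart between lines, with medians on the log2 scale of 0.59 in H1975 and -0.83 in HCC2935 around HOXC, 0.44 in H1975 around HOXA and 0.48 in PC9 around HOXD. Copy number and cell line cannot be told apart here.

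Persisters differed from control cells at single HOX regions in both directions. In PC9 18 of 60 regions were called (30.0%), 10 higher and 8 lower, against 38.1% of annotated regions (16.5% higher, 21.5% lower). In H1975 15 of 27 were called (55.6%), 8 higher and 7 lower, against 62.6% (25.7% and 36.9%). In HCC2935 19 of 51 were called (37.3%), 9 higher and 10 lower, against 45.1% (23.4% and 21.7%). Median log2 differences of the HOX regions were 0.00, 0.04 and 0.06, beside -0.03, -0.07 and 0.06 over annotated regions. In HCC827 0 of 22 were called by edgeR and 0.0523% of annotated regions were. At an unadjusted p under 0.05 it had 3, where 7.69% of annotated regions passed, and DESeq2 called 0, with 2 at an unadjusted p under 0.05. With the replicate number as a block, edgeR still called 0 of the 22, while it called 3.59% of all tested HCC827 regions. Without the block it called 0.0267% of all tested regions there. Shares called among HOX regions were thus near or below the background in every line.

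By cluster the directions differed in count. HOXC and HOXD regions called in PC9 (2 and 2) and in HCC2935 (3 and 2) were all higher in DTP, and in HCC2935 all 7 HOXC and all 6 HOXD regions had a positive log2 difference. H1975 had 2 HOXC regions higher and 2 lower, with a median of -0.02, and 2 HOXD regions higher. Over the whole HOXD span of HCC2935, regions outside the annotated table included, 12 of 29 regions were called and 3 of the 12 were higher. HOXA called regions were 4 higher and 4 lower in PC9, 2 and 3 in H1975, and 2 and 5 in HCC2935. HOXB had 2 higher and 4 lower in PC9, 2 and 2 in H1975, and 2 and 5 in HCC2935. Regions outside promoters were called at 9 of 16 in PC9, 9 of 12 in H1975 and 10 of 18 in HCC2935, where 47.1%, 71.0% and 52.4% of all annotated regions outside promoters were. HOX promoters were called at 9 of 44, 6 of 15 and 9 of 33, against 29.6%, 53.0% and 36.1% of all annotated promoter regions, so the share was higher outside promoters over all annotated regions too. Because PC9 and H1975 replicates hardly differed beyond sampling noise, their counts were also taken with more spread: with the libraries of each group summed and the spread of HCC2935 assumed, 10 PC9 and 6 H1975 regions were called. In PC9 9 were called without control replicate 1.

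**Figure D2:**
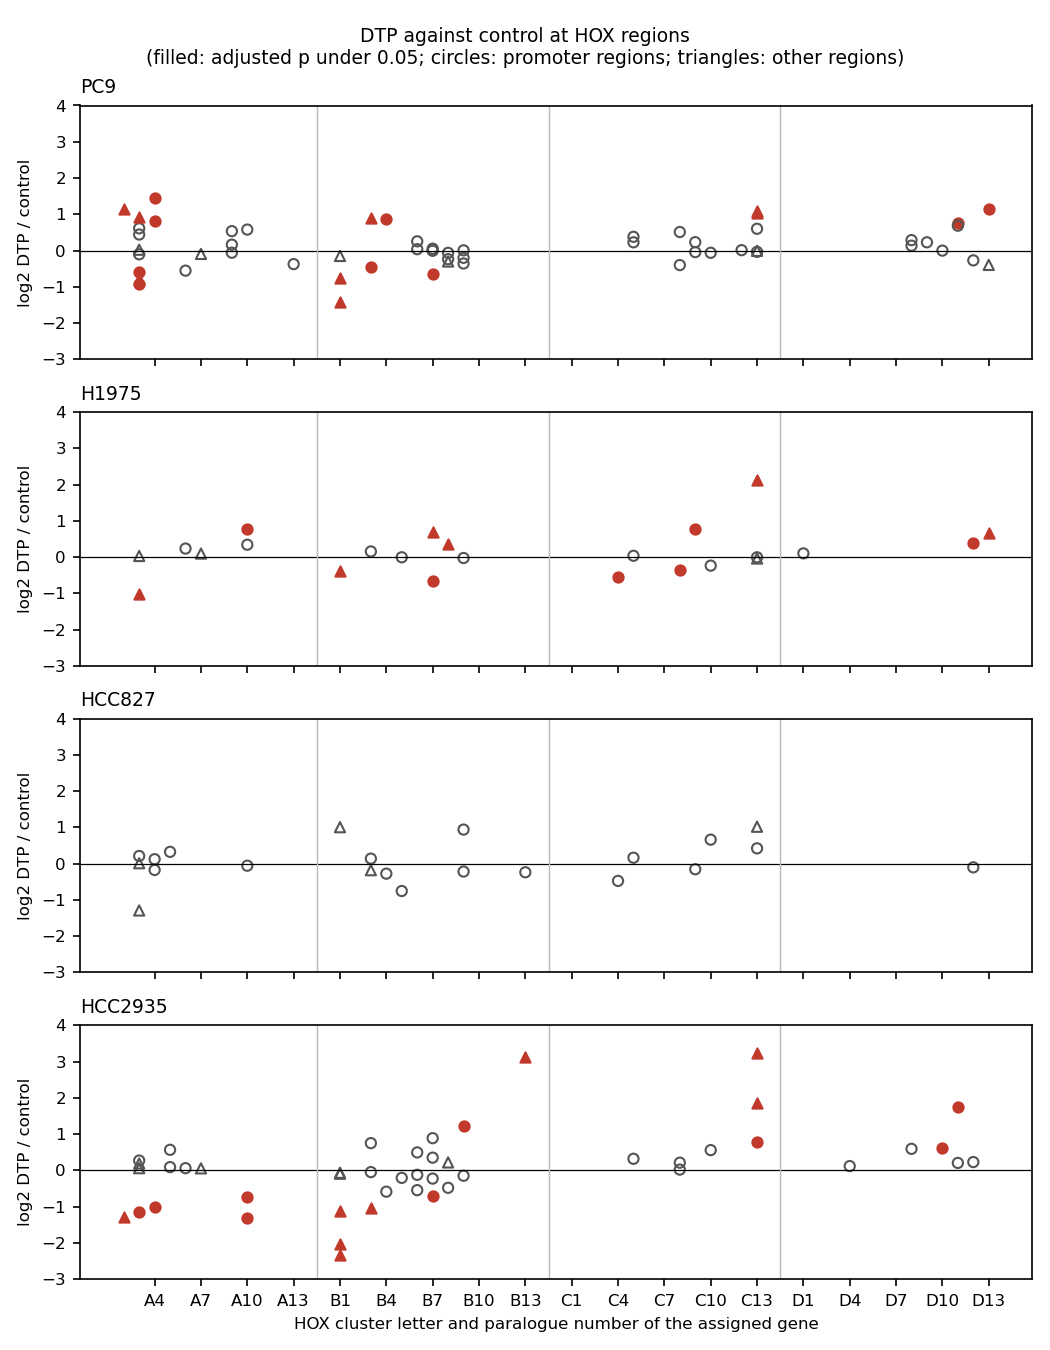
Log2 difference of DTP against control for the HOX regions, ordered by cluster and paralogue number, in a panel per cell line; filled red symbols passed an adjusted p under 0.05 (edgeR), circles are promoter regions and triangles other regions. HOXC and HOXD regions of HCC2935 all lie above 0, a HOXC13 region at 3.23 is the highest point there, and no HCC827 region is filled.

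HOXA held both rises and falls in persisters. HOXA4, an anterior gene, had a promoter region at chr7:27130210-27130711 with 4.07, 5.88 and 4.96 CPM in the PC9 control libraries and 8.18, 8.48 and 10.0 in DTP. All DTP libraries were above all control libraries (log2 difference 0.82, SE 0.206, adjusted p = 0.000604). A second HOXA4 region beside it, starting at 27130718, rose by 1.46 (adjusted p = 0.00396) from 0.890 ± 0.689 to 2.61 ± 0.173 CPM, and it was named after its values were seen, as its mean was low. It covered 290 bases of the RefSeq promoter window of HOXA4, whose sequence (chr7:27130708-27131007, minus strand, GRCh38.p14, 5′ to 3′, 250 bases before to 50 bases after the start) is printed because this stretch gained accessibility in PC9, and it has no capitals since none of the motifs below was found in it.
HOXA4 promoter: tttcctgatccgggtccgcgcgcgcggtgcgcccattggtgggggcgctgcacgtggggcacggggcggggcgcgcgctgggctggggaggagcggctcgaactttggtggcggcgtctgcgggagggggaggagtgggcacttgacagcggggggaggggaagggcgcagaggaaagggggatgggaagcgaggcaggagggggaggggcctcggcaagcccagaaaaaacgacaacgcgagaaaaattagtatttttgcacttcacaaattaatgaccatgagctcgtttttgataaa

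Falls in HOXA were led by regions named for HOXA3. At chr7:27115010-27115511, 1.2 kb upstream of a HOXA3 start, PC9 had 20.1, 16.4 and 15.3 CPM in control and 10.9, 9.31 and 6.43 in DTP, a fall of 0.94 on the log2 scale (SE 0.153, adjusted p = 3.26e-08) without overlap. The HOXA3 intron region, 3.9 kb downstream of a start, fell in PC9 (chr7:27135761-27136262) by 0.80 (SE 0.241, adjusted p = 0.00535), from 8.39, 5.68 and 5.56 to 3.50, 3.93 and 3.61 CPM. In H1975 (chr7:27135803-27136304) it fell by 1.02 (SE 0.107, adjusted p = 2.19e-17), from 22.8, 22.6 and 21.8 to 9.38, 13.2 and 10.3. Control and DTP libraries did not overlap in either line. In HCC827 the same place had 7.65 ± 1.11 CPM in control and 2.91 ± 2.00 in DTP, which was not called (-1.29). With the replicate number as a block the HCC827 difference was -1.36 (SE 0.405, edgeR adjusted p = 0.0630). Without replicate 3 of every group, a fit chosen after seeing the data, it was -2.03 (edgeR adjusted p = 0.0391). In HCC2935 the place had 5.96 ± 1.27 and 6.96 ± 0.569 (0.19, not called). The PC9 call was lost without control replicate 1 (adjusted p = 0.0836) and with summed libraries (0.0562).

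At the posterior end of HOXA, H1975 gained at HOXA10 and HCC2935 lost there. HOXA10, a posterior gene used in the reproductive tract, had 5.12, 5.41 and 5.06 CPM in control and 8.81, 9.53 and 8.59 in DTP at its promoter region chr7:27173396-27173897, a rise of 0.79 (SE 0.157, adjusted p = 5.24e-06) with no overlap. In HCC2935 the HOXA10 regions starting at 27173733 and 27174277 fell by 1.32 and 0.73.

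HOXB regions called lower in persisters were named for HOXB1, HOXB3 and HOXB7. Those of HOXB1, a gene of hindbrain patterning, lay downstream of it toward SKAP1 and made up 2 of the 4 in PC9, 1 of the 2 in H1975 and 3 of the 5 in HCC2935. A region annotated to a HOXB7 promoter fell at about the same place in PC9 (start 48636394, -0.64) and H1975 (48636442, -0.66). By RefSeq it lay within LINC03057, beyond HOXB9, while HOXB7, a central gene, spans 48607232-48611017. In HCC2935 another region named for HOXB7, at another place and over HOXB8 by RefSeq, fell too (48611935, -0.70). All were named after their values were seen. At HOXB1, PC9 had 22.1, 22.3 and 19.6 CPM in control and 13.04, 13.04 and 11.8 in DTP at chr17:48505749-48506250, 24.8 kb downstream of the HOXB1 start, a fall of 0.75 (SE 0.132, adjusted p = 3.45e-07) without overlap. The same place in H1975 (chr17:48505762-48506263) fell by 0.38 (SE 0.111, adjusted p = 0.00228), from 17.6, 16.6 and 13.7 to 13.4, 12.6 and 10.9 CPM, and this call was lost without DTP replicate 3 (adjusted p = 0.0519), with summed libraries (0.166) and by library size alone, where the difference was -0.21 (0.0997). In HCC2935 it was the highest HOXB region, with 30.5 ± 0.788 and 29.2 ± 1.32 CPM, and not called (-0.07).

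HCC2935 lost accessibility at other HOXB1 regions instead. At chr17:48510777-48511278, 19.7 kb downstream, it had 14.1, 15.2 and 8.68 CPM in control and 3.16, 3.04 and 3.07 in DTP, a fall of 2.04 (SE 0.244, adjusted p = 3.97e-09). At chr17:48522102-48522603 it fell by 1.13 (SE 0.226, adjusted p = 8.63e-05), from 16.3, 11.7 and 11.05 to 3.79, 8.42 and 5.66. Another HOXB1 region, starting at 48504862, fell by 2.32. HOXB3, another anterior gene, had 18.3, 16.5 and 11.3 CPM in control and 6.01, 7.73 and 8.90 in DTP at its intron region chr17:48561019-48561520 (fall of 1.04, SE 0.196, adjusted p = 3.34e-05). DTP and control libraries did not overlap at the places given library by library, as the naming rule required. Rises in HOXB were at HOXB9 in HCC2935 (chr17:48626356-48626857, 1.22, from 2.70 ± 0.239 to 6.39 ± 0.217 CPM), at HOXB4 and HOXB3 in PC9 (0.86 and 0.91), and at a region 31.7 kb upstream of HOXB13, the posterior gene of prostate and gut, in HCC2935, which had 0.748 ± 0.646 CPM in control and 7.42 ± 1.86 in DTP (3.13, seen before it was named).

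HOXC13 had the largest rise of a HOX region in H1975 and in HCC2935, in both far upstream of its start. At chr12:53868447-53868948 H1975 had 2.63, 2.76 and 2.41 CPM in control and 9.38, 13.3 and 11.3 in DTP, a rise of 2.12 (SE 0.176, adjusted p = 5.91e-25). HCC2935 had 2.59, 2.25 and 2.37 CPM in control and 9.80, 10.1 and 6.31 in DTP at chr12:53868370-53868871 (1.85, SE 0.269, adjusted p = 3.47e-07). Just beside it, at chr12:53867304-53867805, HCC2935 went from 1.30, 0.250 and 1.05 to 11.7, 7.59 and 6.79 CPM (3.23, SE 0.359, adjusted p = 6.26e-10). Every DTP library of the 2 lines was above every control library at these places. The PC9 region chr12:53867572-53868073 rose by 1.08 (SE 0.213, adjusted p = 6.93e-06), from 3.05, 2.64 and 7.14 to 9.15, 10.6 and 8.23 CPM. Its neighbour in PC9, starting at 53868470, rose by 1.04. HCC827 had 5.96, 7.18 and 13.7 CPM in control and 16.6, 13.1 and 24.7 in DTP at chr12:53868460-53868961, where the groups overlapped and no call was made (1.02, SE 0.415, edgeR adjusted p = 0.584). DTP was above control in each of the 3 same-numbered pairs of HCC827 libraries, and with the replicate number as a block the difference was 1.03 (SE 0.301, adjusted p = 0.0577).

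Over matched regions this HOXC13 place was the only 1 of 35 HOX regions called higher in DTP in at least 3 lines, against 2.22% of all matched regions, and 0 of 35 were called lower in at least 3, against 3.42%. On the matched scale PC9 went from 3.84 ± 1.48 to 7.97 ± 2.49 CPM, H1975 from 4.32 ± 0.230 to 19.4 ± 2.88, HCC2935 from 4.25 ± 0.278 to 14.7 ± 3.43 and HCC827, not called, from 16.8 ± 6.23 to 33.5 ± 7.87. The HCC827 control mean lay within the range of the DTP means of the other lines. The size of the DTP difference depended on the line (adjusted p = 0.0122, edgeR fit with the spread shared by the lines). The HOXC13 promoter itself rose in HCC2935 (chr12:53938364-53938865, 0.77, from 8.61 ± 0.746 to 14.9 ± 1.53 CPM), and had -0.04 in PC9, -0.01 in H1975 and 0.42 in HCC827, not called. HOXC9 rose in H1975 at chr12:53995374-53995875 by 0.77 (SE 0.150, adjusted p = 2.79e-06), from 5.67, 5.29 and 5.78 to 9.38, 10.4 and 8.79 CPM. HOXC4, the most anterior HOXC gene, fell there at chr12:54036786-54037287 by 0.55 (SE 0.143, adjusted p = 0.000515), from 8.16, 10.5 and 10.96 to 6.63, 6.28 and 7.39, a call that summed libraries did not keep (0.0532). Both H1975 differences were without overlap.

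**Figure D3:**
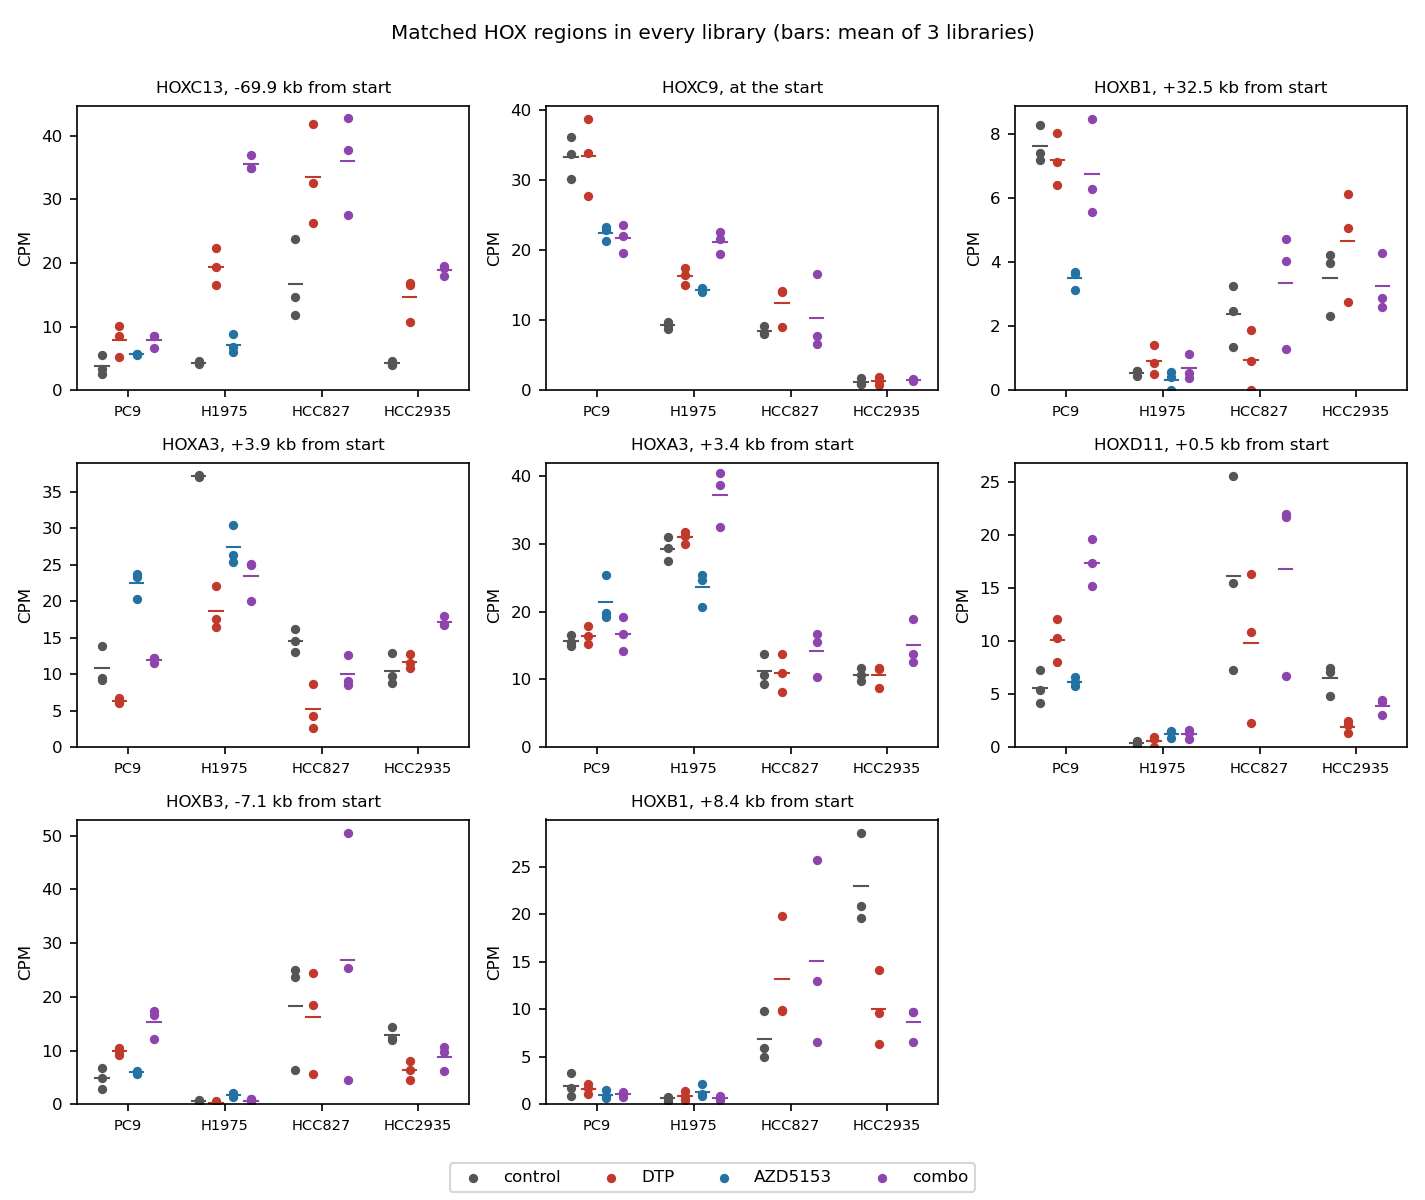
CPM on the scale of matched regions in each library (points; bars are means of 3) of all groups in the 4 lines, in a panel for each of 8 HOX regions. At HOXC13, 69.9 kb upstream, the DTP mean is above the control mean in all 4 lines, while at HOXA3, 3.9 kb downstream, it is below in PC9, H1975 and HCC827 and not in HCC2935.

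HOXD rose in PC9 at its most posterior gene, HOXD13, a gene of digit and hindgut development. The region chr2:176092362-176092863 had 2.54, 3.25 and 4.56 CPM in control and 9.34, 7.45 and 6.43 in DTP, a rise of 1.13 (SE 0.234, adjusted p = 1.91e-05) with all DTP libraries above control. It spans the whole RefSeq promoter window of HOXD13 (chr2:176092471-176092770, plus strand, GRCh38.p14), printed for that reason, and no motif is in capitals because none was found.
HOXD13 promoter: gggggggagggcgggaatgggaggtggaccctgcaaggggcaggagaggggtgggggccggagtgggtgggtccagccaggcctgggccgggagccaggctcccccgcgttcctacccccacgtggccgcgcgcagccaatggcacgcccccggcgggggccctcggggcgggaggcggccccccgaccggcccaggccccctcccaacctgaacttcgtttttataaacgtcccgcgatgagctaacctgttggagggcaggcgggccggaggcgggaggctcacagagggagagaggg

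HOXD11, a limb and kidney gene, rose in HCC2935 at chr2:176104209-176104710 by 1.75 (SE 0.243, adjusted p = 1.29e-07), from 2.78, 3.00 and 3.68 to 9.65, 10.6 and 11.3 CPM, with DTP and control far apart. In PC9 the region chr2:176107742-176108243 rose by 0.77, from 2.54, 3.25 and 4.37 to 7.01, 6.001 and 4.62. HOXD10 rose in HCC2935 by 0.62 and HOXD12 in H1975 by 0.38. The medians of neighbouring regions within 5 Mb in HCC2935 were 0.23 around HOXC and 0.17 around HOXD. Those of the 7 HOXC and 6 HOXD annotated regions were 0.56 and 0.41. The part of a regional shift in the HOX differences was not tested.

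The HOX promoter windows were searched on both strands for TGATTGAT, a joint site of HOX and PBX proteins, TAATTA, a homeodomain core that reads the same on both strands, and TTTATGG, a site of posterior HOX and caudal proteins. RefSeq windows were at hand for 20 HOX genes, 27 windows in all, and for 27305 genes, 35116 windows, in the whole set. HOXC4 and HOXC5 had the same window, which was counted under each gene, and several of the windows belonged to HOXA3. TGATTGAT was in 2 of the 27 (7.41%, against 0.484% of all windows), those of HOXD11 and HOXA2, TAATTA in 2 (7.41% against 4.84%) and TTTATGG in 1 (3.70% against 2.54%). HOX windows had a median GC content of 58.0% and 22 CpG pairs, against 58.7% and 14. The HOXD11 window (chr2:176107030-176107329, plus strand) is printed since it holds 2 of the motifs, in capitals, the HOX and PBX site in reverse. The PC9 HOXD11 region over it, starting at 176106769, covered 241 of its bases and had 0.69 for DTP against control, which was not called (adjusted p = 0.148).
HOXD11 promoter: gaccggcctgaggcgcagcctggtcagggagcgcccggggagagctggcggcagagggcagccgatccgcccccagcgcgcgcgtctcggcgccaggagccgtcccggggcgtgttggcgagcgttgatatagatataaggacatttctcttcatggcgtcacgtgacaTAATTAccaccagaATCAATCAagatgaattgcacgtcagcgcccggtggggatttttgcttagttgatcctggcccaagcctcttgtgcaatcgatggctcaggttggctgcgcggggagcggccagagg

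Persister differences depended on the line at 17 of 35 matched HOX regions (48.6%), against 40.3% of all matched regions. That test used the spread shared by the lines, so its adjusted p can be too small where HCC827 differs from the other lines. Opposite calls in 2 lines were made at 5 of the 35 (14.3%), against 7.15% of all matched regions. Of these, 4 were higher in PC9 and lower in HCC2935 (11.4%, against 0.727%) and 1 was lower in PC9 and higher in HCC2935 (2.86%, against 1.54%). The direction was singled out after the values were seen, and so were the 4 regions named here. HOXA4 at 27130210 rose in PC9 (0.82) and fell in HCC2935 (-0.999) and H1975 (-1.07). A region starting at 27152806 and named for HOXA3 had 1.49 and -1.16, HOXB3 at 48564066 had 0.91 and -0.95, and HOXD11 at 176107742 had 0.77 and -1.65 in PC9 and HCC2935.

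AZD5153 after osimertinib was compared with osimertinib alone. As osimertinib may have been stopped for the AZD5153 days, these differences can hold an effect of its withdrawal besides that of AZD5153. In PC9 24 of 60 HOX regions differed between combo and DTP (40.0%), 16 higher and 8 lower, against 29.3% of annotated regions (15.7% higher, 13.6% lower). In H1975 8 of 27 did (29.6%), 7 higher and 1 lower, against 32.6% (22.0% and 10.6%). In HCC2935 7 of 51 did (13.7%), 1 higher and 6 lower, against 13.2% (4.17% and 9.03%). That count fell to 4 without DTP replicate 1 or 3, to 2 without DTP replicate 2, to 3 without combo replicate 1 or 2, and to 3 under DESeq2 or without the filter on low counts. In HCC827 edgeR called 0 of 22 and 0.0% of annotated regions, with 1 HOX region at an unadjusted p under 0.05 (2.66% of annotated regions), 0 called by DESeq2 and 0 at an unadjusted p there. PC9 HOXD had 4 called regions, all higher, and H1975 HOXA 4, all higher, whereas HCC2935 HOXB had 5, all lower.

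In PC9 several regions that were higher in persisters rose further with AZD5153, though not HOXC13 at 53868470 (-0.02). HOXD13 had 11.9, 11.1 and 14.1 CPM in combo, above every DTP library (0.67). HOXD11 at chr2:176107742-176108243 had 8.82, 10.0 and 11.4 CPM, also above DTP (0.77, SE 0.191, adjusted p = 0.000937). HOXA4 at 27130210 had 13.9, 14.3 and 13.1 (0.63), and the HOXC13 upstream region at 53867572 had 13.7, 15.3 and 11.6 (0.54). All 4 were called. The HOXA3 intron region went back up to 6.66, 7.03 and 7.07 CPM (0.91, SE 0.235, adjusted p = 0.00153), the level of its control libraries.

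Falls with AZD5153 in PC9 persisters were at HOXA3 and HOXB7. HOXA3 at 27115010, already lower in DTP, had 5.29, 4.05 and 4.50 CPM in combo (-0.94, SE 0.209, adjusted p = 0.000174). HOXB1 at 48505749 had 8.42, 6.81 and 6.86 CPM (-0.77, called). HOXB7 had 9.73, 11.6 and 10.0 CPM in DTP and 5.49, 6.18 and 6.43 in combo at its promoter chr17:48610369-48610870 (-0.79, SE 0.188, adjusted p = 0.000456), while control had 9.66, 10.95 and 9.53. Combo lay below DTP in every library at the 3 places. With summed libraries 4 PC9 regions were called, and neither HOXD11 (adjusted p = 0.0676) nor HOXB7 (0.0558) was.

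In H1975 the HOXC13 upstream region rose again, to 21.3, 21.2 and 22.8 CPM in combo, above all DTP libraries (0.94, SE 0.103, adjusted p = 1.69e-14). HOXA7, a central gene, rose at chr7:27160563-27161064 from 9.95, 12.1 and 10.98 CPM in DTP to 14.7, 18.7 and 16.7 (0.60, SE 0.110, adjusted p = 5.39e-06). HOXC4 fell further, to 3.63, 5.57 and 4.31 CPM (-0.58, SE 0.167, adjusted p = 0.00521), a call lost without DTP replicate 3 (adjusted p = 0.0523) or combo replicate 1 (0.0884), under DESeq2 (0.0599), without the filter on low counts (0.0642) and with summed libraries (0.189). With summed libraries 1 H1975 region was called, and 5 were without DTP replicate 3.

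In HCC2935 HOXB1 at 48510777 went on falling, to 1.11, 1.10 and 1.73 CPM in combo (-1.25, SE 0.347, adjusted p = 0.0156). HOXA3 at chr7:27115069-27115570 had 7.12, 8.84 and 10.2 CPM in DTP and 3.16, 4.78 and 3.45 in combo (-1.17, SE 0.228, adjusted p = 0.000478), while control had 6.29, 8.99 and 6.58. This is the promoter place of HOXA3 that fell in PC9 too, and in both lines combo was lowest. The HOXA3 intron region rose from 7.59, 6.49 and 6.79 to 10.1, 11.5 and 10.2 CPM (0.62, SE 0.190, adjusted p = 0.0322), with no overlap. That call was lost without any 1 of the 6 DTP and combo libraries, under DESeq2 and without the filter on low counts, and the one at HOXB1 without combo replicate 1 (adjusted p = 0.0703) or 2 (0.0948). In HCC827 HOXC13 had 17.7, 19.4 and 16.5 CPM in combo, and HOXB9 at chr17:48626336-48626837 had 7.52, 5.19 and 4.74 in control, 11.1, 14.2 and 8.76 in DTP and 8.39, 7.65 and 7.85 in combo, with neither difference called.

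AZD5153 alone was compared with control in PC9 and H1975. In PC9 19 of 60 regions were called (31.7%), 12 higher and 7 lower, against 32.4% of annotated regions (14.4% higher, 18.0% lower), with a median of 0.14 beside 0.01. In H1975 17 of 27 were (63.0%), 8 higher and 9 lower, against 72.2% (29.0% and 43.2%), with medians of -0.16 and -0.18. Neighbouring regions within 5 Mb in H1975 had medians of -0.28 around HOXA, -0.33 around HOXC and -0.46 around HOXD, and with those medians removed the H1975 calls were 10 higher and 5 lower. With summed libraries 8 PC9 and 9 H1975 regions were called.

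With AZD5153 alone HOXA had 9 of its 20 regions called in PC9, beside 7 in HOXB, 3 in HOXC and 0 in HOXD. In H1975 it had 8 of 9, beside 3 in HOXB, 6 in HOXC and 0 in HOXD. The PC9 intron region of HOXA3 rose to 12.5, 14.3 and 14.5 CPM (1.10, SE 0.173, adjusted p = 9.95e-09), whereas in H1975 it fell to 14.3, 16.2 and 13.4 (-0.63, SE 0.104, adjusted p = 2.39e-08). HOXA3 at 27115010 in PC9 fell to 7.49, 7.06 and 6.40 CPM (-1.29, SE 0.159, adjusted p = 1.93e-13). All AZD5153 libraries were outside the control range in each case. HOXA7 in H1975 rose to 18.3, 17.1 and 19.2 CPM from 8.44, 10.8 and 11.4 (0.83, SE 0.117, adjusted p = 1.03e-10), and the PC9 region of HOXA7 starting at 27160557 rose by 0.85.

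In HOXB the H1975 region downstream of HOXB1 at 48505762 fell from 17.6, 16.6 and 13.7 CPM to 3.34, 2.96 and 3.26 (-2.30, SE 0.157, adjusted p = 1.66e-33). The PC9 region of HOXB9, a gene used in thoracic segments, at chr17:48625766-48626267 fell from 33.6, 30.6 and 32.7 to 20.4, 19.5 and 15.8 CPM (-0.80, SE 0.106, adjusted p = 1.05e-11). Both sets of libraries were apart from control. In HOXC the PC9 region upstream of HOXC13 at 53867572 rose to 9.99, 9.28 and 9.97 CPM (1.15, SE 0.208, adjusted p = 1e-06), and the H1975 promoter of HOXC13 at chr12:53938328-53938829 rose from 9.27, 11.5 and 9.88 to 17.8, 14.9 and 14.3 (0.61, SE 0.122, adjusted p = 4.88e-06). HOXD13 and HOXD11, which rose in PC9 persisters, had 0.58 and 0.13 in PC9 with AZD5153 alone, neither called.

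Osimertinib may have been stopped in combo, so its difference from DTP can hold a withdrawal effect besides that of AZD5153. Whether this difference was like that of AZD5153 against control was tested by an interaction. In PC9 5 of 60 HOX regions had one (8.33%), 2 positive and 3 negative, against 18.9% of annotated regions (10.8% positive, 8.1% negative), and in H1975 11 of 27 (40.7%), 8 positive and 3 negative, against 59.8% (40.0% and 19.8%). HOXB1 at 48505762 in H1975 had 11.02, 11.03 and 11.3 CPM in combo, close to its DTP libraries and far above those with AZD5153 alone (interaction 2.17, SE 0.202, adjusted p = 1.48e-20). The H1975 promoter of HOXC13 had 8.81, 11.2 and 10.5 CPM in DTP and 9.03, 11.8 and 8.23 in combo, which overlapped, while AZD5153 alone lay above control (interaction -0.69, SE 0.177, adjusted p = 0.000576). In PC9 HOXC12 at chr12:53953020-53953521 had 12.97, 10.8 and 10.3 CPM in control, 11.5, 10.1 and 12.2 in DTP, 8.26, 8.17 and 9.97 in AZD5153 and 15.1, 14.5 and 15.9 in combo (0.77, SE 0.222, adjusted p = 0.00746). HOXB9 at chr17:48626350-48626851 had -0.84 (SE 0.298, adjusted p = 0.0407), with 9.61, 10.0 and 11.3 CPM in AZD5153, 6.36, 7.30 and 7.54 in control, 5.26, 4.97 and 6.43 in DTP and 3.13, 6.39 and 4.07 in combo. The HOXB9 call was lost without any 1 of 9 of the 12 libraries, down to -0.62 (adjusted p = 0.218) without combo replicate 1, and without the filter on low counts (0.110). With summed libraries 0 PC9 and 7 H1975 interactions were called, and 3 in PC9 without any 1 of control replicate 1, DTP replicate 1, AZD5153 replicate 3, and combo replicates 1 and 3.

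**Figure D4:**
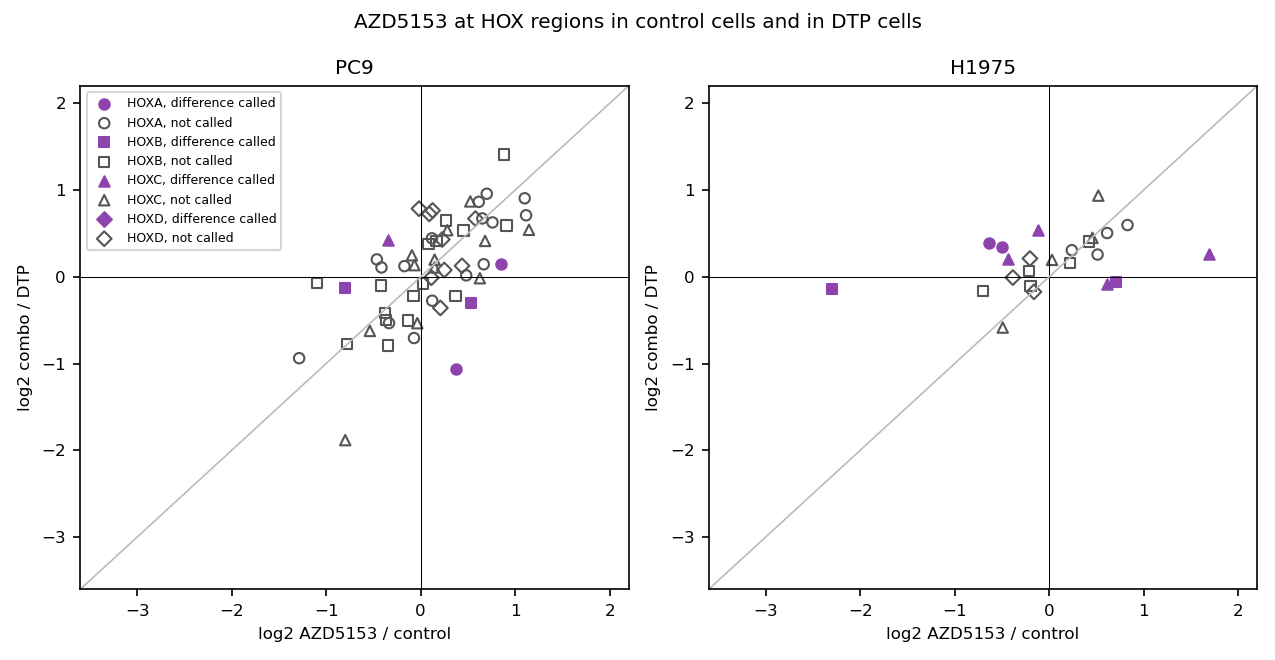
Log2 difference of AZD5153 against control (x axis) and of combo against DTP (y axis) for the HOX regions of PC9 and H1975, with regions whose interaction passed an adjusted p under 0.05 filled in purple. The HOXB1 region of H1975 lies far to the left, at -2.30 for AZD5153 alone and -0.14 in persisters.

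Summed over the annotated regions of a cluster, HOXC and HOXD in HCC2935 had the widest differences. These sums leave out regions outside the annotated table. Over the whole HOXD span of HCC2935, 12 of 29 tested regions were called with DTP and only 3 of the 12 were higher. HOXC had 27.8 ± 2.46 CPM in control, 52.1 ± 4.28 in DTP and 63.8 ± 4.49 in combo. HOXD had 26.3 ± 1.78, 40.0 ± 1.08 and 44.3 ± 2.82, with no overlap of control and DTP. In PC9 HOXD had 54.0 ± 2.47 in control, 59.7 ± 5.72 in DTP, where the groups overlapped, and 74.6 ± 3.97 in combo, above both. HOXB in PC9 was 167 ± 0.946 in control and 146 ± 3.64 in DTP, without overlap. HOXA in H1975 was 82.3 ± 2.13 in control, 64.6 ± 4.13 in DTP, 71.4 ± 1.70 in AZD5153 and 84.7 ± 7.86 in combo. HOXC in H1975 was highest in combo (78.5 ± 1.36), above DTP (61.4 ± 4.62) and control (54.9 ± 3.06). In HCC827 HOXC had 59.6 ± 4.25 in control and 76.8 ± 8.12 in DTP, which overlapped on the scale of library size alone. Over promoters within 1 kb of a start alone, several of these differences between DTP and control were of another size. On the log2 scale H1975 HOXA had 0.53 over promoters and -0.35 over all regions, and H1975 HOXC -0.01 and 0.16. PC9 HOXB had -0.04, with overlap, and -0.20, while PC9 HOXD had 0.48, without overlap, and 0.14. HCC2935 HOXC had 0.57 and 0.91, both without overlap. These sums have 3 libraries a group, too few for an exact permutation test to pass, and none was run.

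**Figure D5:**
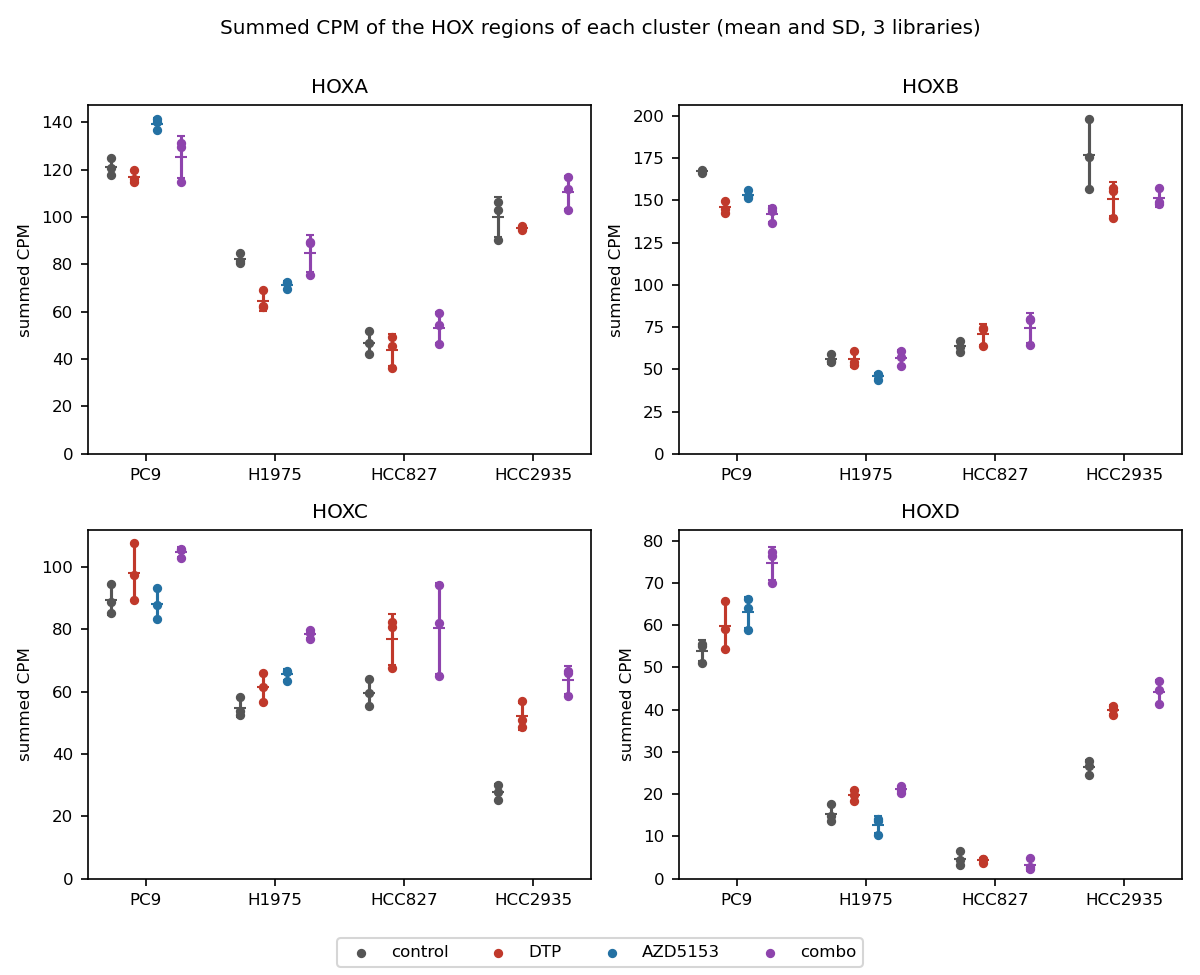
Summed CPM of the annotated regions of each HOX cluster in every library (points), with mean and SD of the 3 libraries of each group, in a panel per cluster. The HOXC and HOXD sums of HCC2935 are higher in DTP and combo than in control, and the HOXB sum of PC9 is lower in DTP than in control.

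Peak lists were set beside these sums, with lists of 127720 to 164987 peaks in PC9 control and 172227 to 174356 in PC9 DTP. In HCC2935 a peak was listed at 12 of 21 pairs of HOXC region and library in control, 20 in DTP and 21 in combo, and at 13, 17 and 18 of 18 for HOXD. PC9 HOXD had 19 of 27 in control, 24 in DTP, 25 in AZD5153 and 27 in combo. PC9 HOXC went from 31 to 36 of 39 and PC9 HOXA from 50 to 56 of 60 between control and DTP, though their sums overlapped, and PC9 HOXB had 50 and 49 of 54, though its sum was lower in DTP. In H1975 HOXA had 27 of 27 in control and 22 in AZD5153, and HOXC had 24 of 24 in every group. The lists were called to different depths, so these counts cannot be set directly side by side. HCC2935 lists held 100211 to 204759 peaks in control and 111756 to 125218 in DTP. In H1975, AZD5153 replicate 3 had 130806, while control lists had 175567 to 199470. Peaks were listed from the same libraries, so they are no separate measurement.

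The cluster spans also held regions outside the annotated tables, which were tested as well. Over the 4 spans PC9 had 118 tested regions, 53 of them outside the annotated table. With DTP 22 of the 118 were called (18.6%, against 31.8% of all tested regions), 15 of them higher (15.5% of all), and 6 of the 22 lay outside the table. H1975 had 23 of 81 called (28.4%, against 51.8%), 15 higher (24.8% of all), with 12 of the 23 outside the table. HCC2935 had 32 of 117 called (27.4%, against 37.4%), 9 higher (18.4% of all), with 17 outside. In HCC827 edgeR called 0 of 102. In HCC2935 8 of the 12 regions called in the HOXD span lay outside the table. In H1975 the HOXC span had 24, with 9 called and 6 higher, of which 6 called regions lay outside the annotated table.

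Genes that work with or next to the clusters were counted by their promoters. Of all annotated promoter regions, 15.1% were higher and 14.5% lower in PC9 persisters, 26.0% and 27.0% in H1975, and 20.8% and 15.3% in HCC2935, and no list was tested against these shares. Among TALE cofactors, which bind DNA with HOX proteins, MEIS3 rose (0.97) and MEIS1 (-0.36) and PBX4 (-0.27) fell in PC9 persisters, 1 higher and 2 lower of 7. H1975 had 0 and 1 of 6 and HCC2935 1 and 0 of 7, with PBX3 at 0.48. Of the noncoding genes inside the clusters PC9 had 1 lower of 7, HOTAIRM1 (-2.06), H1975 1 higher of 4, HAGLR (0.90), and HCC2935 2 higher, HOTTIP (1.42) and HOXC13-AS (0.88), and 1 lower, HAGLR (-1.89), of 6. Flanking genes had 4 higher and 1 lower of 9 in PC9, with EVX1 at 1.46, 2 and 2 of 7 in H1975 and none of 7 in HCC2935 (edgeR). CDX1, a caudal gene that turns on HOX genes, rose by 0.90 in PC9, the only 1 of 3 caudal genes with a promoter tested there. Polycomb genes had 1 higher and 0 lower of 13 in PC9, 3 and 3 of 13 in H1975 and 4 and 1 of 13 in HCC2935, with PHC1 up by 1.02 and 1.88 in the last 2 lines. Trithorax genes had 1 and 0 of 10, 3 and 2 of 10 and 2 and 1 of 10. In HCC827 edgeR called none of the promoters in these lists and 0.00612% of all promoter regions.

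With AZD5153 alone in H1975, promoters of 8 of 10 trithorax genes were higher and 0 lower, with KMT2A at 1.07 and MEN1 at 1.00, beside 39.9% of all annotated promoter regions higher and 29.5% lower. Of 13 Polycomb genes 6 were higher and 3 lower, with SUZ12 at 0.85 and JARID2 at 0.82. Of 6 epithelial marker promoters 1 was higher and 5 were lower in the same libraries, with a median of -1.22. In PC9 the trithorax genes had 0 higher and 1 lower of 10, and the Polycomb genes 0 and 1 of 13, beside 11.6% and 13.7% of all annotated promoter regions.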

How the data were processed

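ATAC-seq libraries were analysed from deposited tables of raw counts per region, 1 table per line, made by the authors. A second deposited table held the regions with gene annotation, and peak lists gave the q value of each peak as −log10, by the authors. The submitters' notes name hg38, BWA 0.7.17, SAMtools 1.9, deepTools 3.4, MACS2 2.2.6, featureCounts 2.0.0 and ChIPseeker 1.29.1, with no roles. How regions entered the annotated tables was not given in the sources used here.

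Each line was fitted over all its regions (126506, 191202, 82309 and 154179 tested in PC9, H1975, HCC827 and HCC2935) by edgeR 4.0.16 (R 4.3.3), using TMM factors, filterByExpr, a mean for each group of the line and the quasi-likelihood test. Benjamini-Hochberg adjustment was over all regions tested, and calls were made at 0.05. Matched regions of the 4 lines were fitted together, with the spread shared by all lines. DESeq2 1.42.0 was an alternative, and the fits were tested on simulated data. Figures used matplotlib 3.10.9.

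HOX members, gene lists and tests were chosen with earlier results of these data known. Named regions were the 3 largest rises and falls with DTP, and 2 with AZD5153, among called regions without overlap of libraries and with a mean at or above the median HOX region. For the interaction it was 1 each way, whether libraries overlapped or not, and for control levels the 2 regions of each line furthest above the others. Where none was called, the 2 of smallest p were named. Same-numbered libraries deviated together in every pair of groups in HCC827 only (r of 0.261 to 0.828). They did so weakly between DTP and combo of HCC2935 (0.0958, 0.178 and 0.206). In HCC827 replicates 1 and 2 correlated with each other too (0.225 to 0.522) and replicate 3 went against both (-0.679 to -0.353), and the labels name no pairing. HCC827 values are from the fit without a block unless a block is named. Values of 1 HOX gene are counted in totals and not reported here by name or drawn by region.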

Additional observations from a re-analysis of the deposited data

Results flagged for a closer look

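Among the named regions, HOX results differed between groups at 11 places and contrasts by a test of the difference itself. Over all HOX regions that test passed at 5 of 60 in PC9 and 11 of 27 in H1975 for AZD5153 by osimertinib, and at 17 of 35 matched regions for DTP by line. The difference of combo against DTP was unlike that of AZD5153 against control in PC9 at HOXC12 (log2 0.77) and HOXB9 (-0.84). The same was so in H1975 at HOXB1 (2.17) and at the HOXC13 promoter (-0.69), by the edgeR interaction term. Any effect of osimertinib withdrawal in combo is part of these values. The PC9 interactions at HOXC12 and HOXB9 were both lost under DESeq2, with adjusted p of 0.0750 and 0.185, and without the filter on low counts (0.0571 and 0.110), and HOXB9 was also lost without any 1 of 9 libraries. The interaction at HOXB1 held under every alternative run, and that at the HOXC13 promoter was lost without a filter on low counts (adjusted p = 0.0806) and with summed libraries (0.118).

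The DTP difference depended on the cell line, by the interaction of DTP with line over matched regions, at 7 named places. The fit shared a spread of 7.44% between lines, while HCC827 alone had 44.9%. Adjusted p can thus be too small where HCC827 differs from the other lines. The adjusted p from edgeR was 0.00612 at HOXA4 (27130210), 0.00114 at the HOXA3 intron region (27135761), 1.64e-05 at HOXB1 (48505749), 0.000445 at HOXB1 (48522104), 0.0142 at HOXB9 (48626350), 0.0122 at HOXC13 (53868470) and 0.0118 at HOXC9 (53995340). At HOXB1 (48505749) PC9 had -0.75 and H1975 -0.38, both called, while HCC827 had 1.01 and HCC2935 -0.07, neither called. At HOXB9 HCC2935 had 1.22, called, and PC9 had -0.36, not called.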

How the results depend on the processing

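Over the alternatives, 598 of 640 values of the 44 named results kept their direction and side of the threshold, 41 lost the call and 1 turned, HOXB3 at 48564112 in HCC827, combo against DTP, to -0.22 without combo replicate 2 (-0.22 to 1.06 over the libraries left out).

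Counts of called HOX regions moved by over 1.5 times as follows. DESeq2 gave 10 for combo against DTP, 12 for AZD5153 and 1 for the interaction in PC9, 9 for DTP and 3 for combo against DTP in H1975, and 3 for combo against DTP in HCC2935. Summed libraries, assuming the spread of HCC2935, gave in PC9 10 for DTP, 4 for combo against DTP, 8 for AZD5153 and 0 for the interaction, and in H1975 6, 1, 9 and 7. No filter on low counts gave 2 for the PC9 interaction and 3 for combo against DTP in HCC2935. At 80% overlap 11 matched regions depended on the line. Without replicate 3 of every group, an alternative chosen after seeing the data, HCC827 had 1 region called with DTP, the HOXA3 intron region at 27135798 (-2.03, adjusted p = 0.0391). The cause of these moves was not tested.

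With 1 library left out, counts were 9 to 16 for DTP, 18 to 21 for combo against DTP, 15 to 18 for AZD5153 and 3 to 5 for the interaction in PC9. They were 10 to 13, 5 to 8, 13 to 15 and 10 to 12 in H1975, 0 and 0 in HCC827, 17 to 20 and 2 to 5 in HCC2935, 32 to 34 for lines at baseline and 12 to 18 for DTP by line.

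By library size alone the split of higher and lower calls was 14 and 8 for DTP in HCC2935, 10 and 5 for DTP in H1975 and 6 and 5 for the H1975 interaction. Without the AZD5153 libraries, also added after seeing the data, H1975 gave 15 and 8 calls as before. With a replicate block the counts were 18, 24, 19 and 5 in PC9, 15, 8, 17 and 11 in H1975, 0 and 0 in HCC827, and 19 and 7 in HCC2935, the same as without it. The HCC827 block gave 6 HOX regions at an unadjusted p under 0.05 for DTP. Over all tested regions the block fit called 2957 (3.59%), against 22 (0.0267%) without it. Same-numbered libraries correlated at -0.0098 to 0.0126 in PC9, -0.0623 to 0.0151 in H1975 and -0.0739 to 0.206 in HCC2935. The highest of these in HCC2935 were between DTP and combo, where libraries of other numbers had -0.188 to 0.0280. The labels name no pairing, and the main fits read the numbers as names only. Low counts limit the weakest regions, and the spread of HCC827 limits what could be called there.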
